A study of Caenorhabditis elegans with 2 samples.

Results

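The 9 genes described here encode the machinery that brings newly made proteins into the endoplasmic reticulum (ER) of Caenorhabditis elegans: the Sec61 translocon subunits sec-61.A and sec-61.B, the translocon-associated protein (TRAP) subunits trap-1, trap-2, trap-3 and trap-4, the translocating chain-associated membrane protein gene tram-1, the stress-associated ER protein gene serp-1.1, and srpa-72 of the signal recognition particle (SRP). They were taken by name, as 9 of 19973 nuclear protein-coding genes, and all 9 names matched the annotation. The names were chosen with earlier results of these data known. A chromatin immunoprecipitation sequencing (ChIP-seq) peak was given to a gene when its summit was inside the promoter window, which reaches 1000 bp upstream and 200 bp downstream of every protein-coding transcript start of the gene. The data map GFP-tagged XBP-1 in whole hermaphrodite L1 larvae of strain OP506, collected 6 h after synchronization by starvation following bleaching. The 2 libraries are biological replicates of 1 group. Both carry the unc-119 allele tm4063 on chromosome III and the integrated transgene wgIs506, which encodes XBP-1 tagged C-terminally with GFP-FLAG. The immunoprecipitation is described as anti-GFP, although another label field names xbp-1 as the antibody. The control that the labels point to was not analysed here, so no peak was set against a background measured the same way. A single transgenic line and whole animals limit the model: the tagged protein is made from a transgene, and cell types cannot be told apart.

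XBP-1 is a basic leucine zipper transcription factor of the unfolded protein response, whose active form is translated from a messenger RNA that the ER sensor IRE-1 has spliced. Proteins bound for secretion or for membranes carry a signal sequence that the SRP recognises as it leaves the ribosome. The SRP docks the ribosome at its receptor on the ER, and the chain is handed to the Sec61 channel, a complex of alpha, beta and gamma subunits, through which it crosses or enters the membrane. The TRAP complex, TRAM and SERP1 (also known in mammals as RAMP4) sit beside the channel and assist it with some of its substrates. Many worm messenger RNAs are trans-spliced, so that an annotated start can lie downstream of the place where transcription begins.

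Of the 9 genes, 8 had a thresholded peak, one that passed the authors' irreproducible discovery rate (IDR) threshold over both replicates, in the promoter window, against 15.5% of all nuclear protein-coding genes. The exception was tram-1. Because the 9 genes were chosen with earlier results of these data known, the count beside 15.5% is a description only. Because sec-61.B and trap-3 shared a summit, the 8 genes rested on 7 distinct peaks. The plus-strand sequence around the summits is shown for 6 of these and for the weak region upstream of tram-1, to let the peaks be compared base by base. Each run spans 75 bp on either side of the summit, except at sec-61.A, whose summit lies in a 5′ untranslated region. There 30 bases around the word described next are given. They lie to 1 side of the summit, IV:14825134, and do not hold it, so this run is not summit sequence. For the summit of either replicate, the copy shown is outside the 75 bp window, and another copy, not shown, is inside it. Capitals mark the 7-base word ACTGCAA on either strand, which reads TTGCAGT where it lies on the minus strand. Sequence is that of RefSeq for WBcel235, the same assembly as ce11, on which the deposited coordinates are given. The run for tram-1 holds no capitals because the word is not in it.
sec-61.B and trap-3 (IV:2389068-2389218): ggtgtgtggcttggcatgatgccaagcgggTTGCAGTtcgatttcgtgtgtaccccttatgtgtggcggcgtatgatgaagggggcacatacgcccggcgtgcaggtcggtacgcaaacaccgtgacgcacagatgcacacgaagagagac
sec-61.A (IV:14825053-14825082): ggacagtgtttTTGCAGTttttattgctat
trap-2 (X:768200-768350): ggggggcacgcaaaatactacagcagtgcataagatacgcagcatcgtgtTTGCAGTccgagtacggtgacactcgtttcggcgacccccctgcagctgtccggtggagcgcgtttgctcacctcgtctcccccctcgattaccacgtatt
trap-4 (III:11920456-11920606): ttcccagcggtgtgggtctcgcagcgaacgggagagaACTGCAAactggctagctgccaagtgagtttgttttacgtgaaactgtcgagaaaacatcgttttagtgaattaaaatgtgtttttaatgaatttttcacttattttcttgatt
serp-1.1 (X:15841188-15841338): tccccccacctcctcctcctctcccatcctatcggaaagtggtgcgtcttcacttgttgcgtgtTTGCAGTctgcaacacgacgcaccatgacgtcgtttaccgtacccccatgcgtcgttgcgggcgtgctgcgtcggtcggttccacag
srpa-72 (II:2787247-2787397): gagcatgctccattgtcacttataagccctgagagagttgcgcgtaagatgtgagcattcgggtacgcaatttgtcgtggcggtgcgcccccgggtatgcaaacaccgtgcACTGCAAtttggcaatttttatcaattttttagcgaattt
tram-1 (IV:10221590-10221740): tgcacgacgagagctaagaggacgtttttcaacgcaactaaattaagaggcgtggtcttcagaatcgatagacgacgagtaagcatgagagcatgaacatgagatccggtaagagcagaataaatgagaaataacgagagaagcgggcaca

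The core channel genes had peaks of ranks 130 and 270 among the 3641 thresholded peaks, ordered by signal value with 1 as the strongest. The signal value is the authors' own, on a scale that is not stated, and serves here only to describe and rank regions within 1 list; over the thresholded list it spanned 73.26 to 34888.2, with a median of 147.6. sec-61.B (WBGene00021427, IV:2388185-2388675, minus strand) encodes the beta subunit of the channel, and trap-3 (WBGene00021420, IV:2389445-2390259, plus strand) a TRAP subunit. The 2 genes point away from each other, with starts 770 bp apart, and the peak at IV:2388981-2389295 lay between them. Its summit, IV:2389143, was 302 bp upstream of trap-3 and 468 bp upstream of sec-61.B, so it was nearer to trap-3, and its signal value was 725.0. The summit fell inside the annotated non-coding RNA gene Y38F2AR.17 (IV:2388951-2389244, plus strand), and a second such gene, Y38F2AR.16 (IV:2388949-2389097, minus strand), overlapped the peak. In the single replicates the region ranked 162 in replicate 1 (signal value 346.1) and 106 in replicate 2 (381.4), with summits 16 bp apart.

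sec-61.A (WBGene00013311, IV:14822540-14825264, minus strand) encodes the pore-forming alpha subunit. Its peak, IV:14824959-14825320, ranked 270 with a signal value of 523.8. The summit at IV:14825134 lay 130 bp downstream of the first annotated start, in the exon that holds the 5′ untranslated region, and this was the only member with a summit inside the gene. Both replicates placed the summit closer to the start, 77 bp downstream in replicate 1 and 78 bp in replicate 2. The replicates thus differed from each other by 1 bp, and from the summit of the pooled call by 53 and 52 bp. The region ranked 274 in replicate 1 (signal value 270.4) and 270 in replicate 2 (253.5). The gene has 2 annotated starts, and weaker relaxed regions lay in the window of 1 or the other. A pooled region of rank 25203 lay 925 bp upstream of the first start, in an intron of rps-18. Regions of rank 25836 in the pooled list and 5980 in replicate 1 (signal value 23.46) lay in the sec-61.A coding sequence. They were counted through the second start, IV:14824330, at -15 and -22 bp from it. None of these regions passed the threshold. The sec-61.A summit also lay in the promoter window of rps-18, a small ribosomal subunit protein gene on the other strand whose start is 415 bp away. It was 545 bp upstream of the rps-18 start.

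The TRAP genes spanned a wide range of peak strength. trap-3 stood at rank 130, as given above, trap-2 at rank 325, trap-1 at rank 1139 and trap-4 at rank 2183, with signal values from 725.0 for trap-3 to 125.1 for trap-4. trap-2 (WBGene00020216, X:767023-768069, minus strand) had a signal value of 466.8 at a summit 206 bp upstream (X:768275, peak X:768148-768392). The region ranked 357 in replicate 1 (signal value 233.0) and 311 in replicate 2 (234.3), with summits at X:768278 and X:768260. The gene on its other side, ile-2, encodes an L-type lectin; L-type lectins are known in mammals as cargo receptors between the ER and the Golgi. Its start is 527 bp from that of trap-2, and the summit lay 321 bp upstream of ile-2.

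trap-1 (WBGene00022122, plus strand) lies on chromosome I, at I:2928395-2929628. Its peak, I:2928090-2928271, was the narrowest of the members' at 182 bp and had a signal value of 219.0 at a summit 221 bp upstream. Replicate 1 ranked the region 1153 (signal value 111.6) and replicate 2 ranked it 1050 (112.6), with summits 217 and 222 bp upstream of the start. No other protein-coding gene had this summit in its promoter window. The gap to the upstream gene, Y71F9AL.1 on the same strand, is 260 bp, and the summit lay 40 bp beyond the end of Y71F9AL.1. This gap was the shortest of those around the member peaks that lay between protein-coding genes.

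trap-4 (WBGene00013238, III:11920735-11921586, plus strand) had the weakest TRAP peak. Its signal value of 125.1 was under the median of the thresholded list. The summit at III:11920531 (peak III:11920343-11920718) lay 204 bp upstream of trap-4 and 294 bp upstream of ccf-1, a CCR4-NOT complex subunit gene on the other strand whose start is 498 bp away. Replicate 1 ranked the region 2144 (signal value 65.03) and replicate 2 ranked it 2216 (60.49), with summits at III:11920535 and III:11920566. A second, weaker region at the trap-4 start ranked 11161 in the pooled list and 12488 in replicate 1. It did not pass the threshold.

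Of the channel's other partners, serp-1.1 had the strongest peak of the 9 genes and tram-1 had none that passed the threshold. serp-1.1 (WBGene00010337, X:15841572-15842379, plus strand) stood at rank 77 with a signal value of 898.6. Its summit at X:15841263 (peak X:15841125-15841421) was 309 bp upstream, in intergenic sequence. Replicate 1 ranked the region 89 (signal value 445.0) and replicate 2 ranked it 60 (462.4), with summits 13 bp apart. No other gene shared it: the nearest gene on the other side, acox-1.6, begins 2717 bp from the summit, and the gap between the genes is 3025 bp.

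tram-1 (WBGene00007696, IV:10219373-10221287, minus strand) encodes the translocating chain-associated membrane protein. In the pooled relaxed list, where all 9 members had a promoter region against 40.9% of all genes, the tram-1 region ranked 6746 of 26088, with a signal value of 39.26 at a summit -378 bp from the start (IV:10221665). Replicate 2 had a region of rank 3690 (signal value 35.78) at -287 bp, and replicate 1 had none in the window. Among relaxed regions of single replicates, 8 of the 9 members had one in replicate 1 against 43.3% of all genes, and all 9 had one in replicate 2 against 43.5%. A stronger, thresholded peak lay just outside the tram-1 window: rank 1305, signal value 197.0, IV:10222265-10222640, with its summit 1166 bp upstream of tram-1. That summit was 86 bp upstream of the neighbouring gene C24F3.2, annotated as a protein-tyrosine-phosphatase, which points the other way from a start 1252 bp distant. With a window of 2000 bp the same peak gave tram-1 a call, and all 9 members then had one. A wider window also takes in more genes in general, and no share of all genes was taken for it.

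srpa-72 (WBGene00017245, II:2787481-2793943, plus strand) encodes the largest protein of the SRP and had the weakest member peak. It stood at rank 2678 with a signal value of 99.70. The summit at II:2787322 (peak II:2787134-2787509) lay 159 bp upstream, and both replicates had their summit at the same base. Replicate 1 ranked the region 2690 (signal value 52.05) and replicate 2 ranked it 3313 (40.06). The start of F08D12.12, annotated as a RING-type domain protein, is 400 bp away on the other strand, and the summit lay 241 bp upstream of it.

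**Figure D1:**
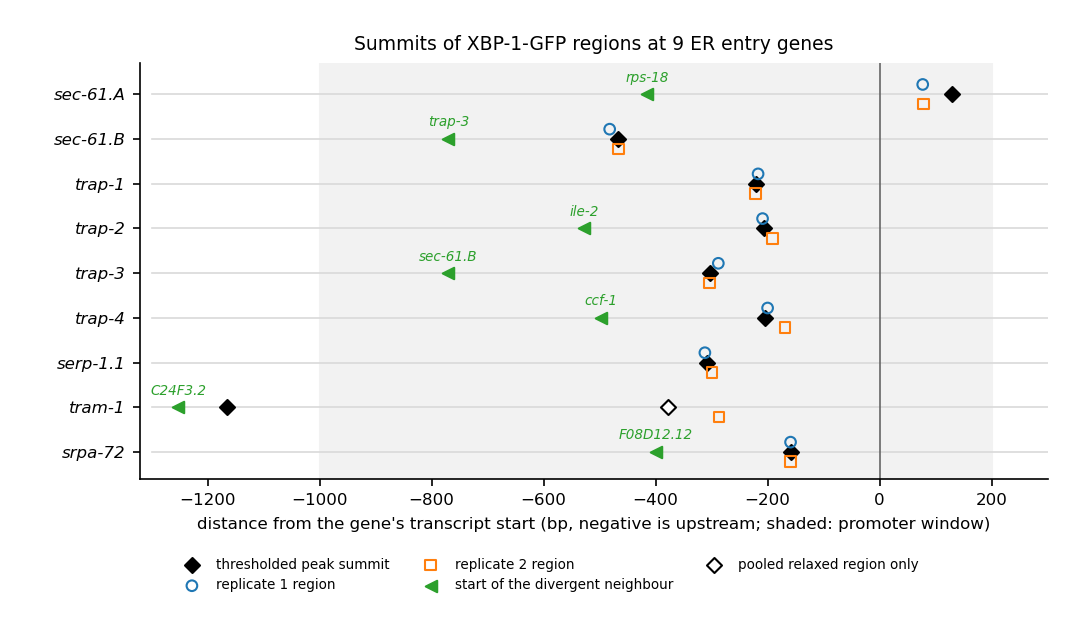
Summit positions (x axis, bp from each gene's transcript start, negative upstream) for the 9 genes (rows). Filled diamonds are thresholded peaks, the open diamond is the pooled relaxed region of tram-1, circles and squares are the strongest promoter regions of replicates 1 and 2, and triangles are starts of divergent neighbours. Of the 8 members with a thresholded promoter peak, 7 have the summit between 468 and 159 bp upstream, while that of sec-61.A is 130 bp downstream.

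Summits of the 8 genes sat at a median of -213.5 bp from the start, where a negative distance is upstream, with a range of -468 to 130. Measured from the nearest start, the median was -206 bp for the 7 member peaks and -186 bp for all thresholded peaks with a promoter summit, of which 93.7% were upstream. The position of the member peaks was thus close to that of promoter peaks in general. Of the 7 member peaks, 5, or 71.4%, had a summit in the windows of more than 1 protein-coding gene. Among all promoter peaks this held for 818 of 2395, or 34.2%. These shares are not counted alike. The members were taken as genes, and a shared peak can be reached through more than 1 gene. A shared peak is therefore more likely to be among the member peaks than an unshared one. No share per gene was taken, so 71.4% against 34.2% does not set the members apart. All 5 shared member peaks lay at a pair of genes arranged head to head, and in 1 of them both genes were members. For the other 4 peaks the partner (rps-18, ile-2, ccf-1 and F08D12.12) was outside the 9 genes, and a peak list cannot tell which gene of a pair the bound protein serves. When each summit was given only to the gene with the nearest start, sec-61.B lost its call to trap-3. Then 7 members had a peak, with no share of all genes taken under that rule.

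**Figure D2:**
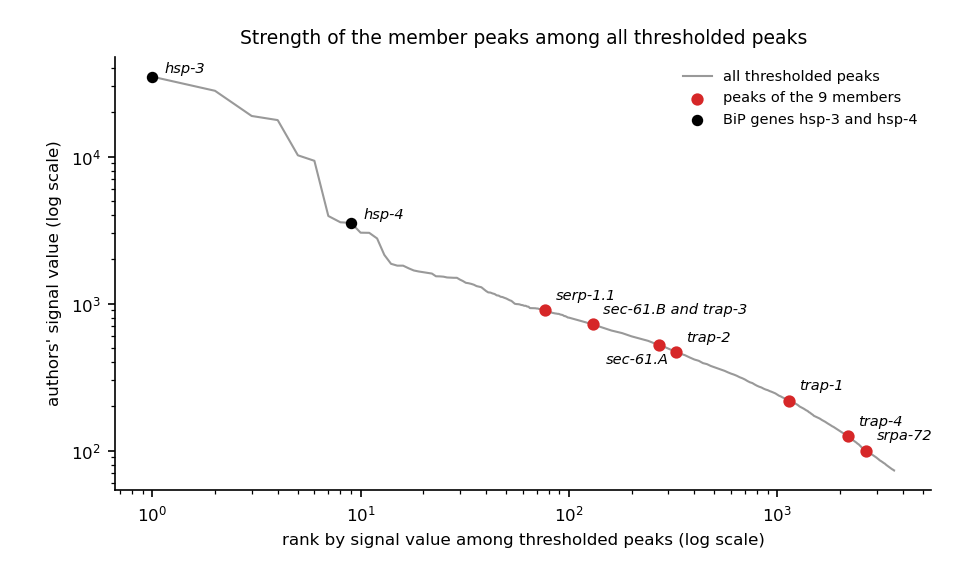
Signal value given by the authors (y axis, log scale) against rank (x axis, log scale) for the 3641 thresholded peaks (grey line), with the 7 member peaks in red and the BiP genes hsp-3 and hsp-4 in black. Member peaks run from rank 77 at 898.6 to rank 2678 at 99.70, all below hsp-3 at 34888.2 and hsp-4 at 3537.3.

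The median rank was 297.5 over the 8 members with a peak and 325 over the 7 distinct peaks. Of these peaks 1 was among the first 100, 3 were among the next 400, and 3 came later; 5 of the 7 belonged to the stronger 1820 peaks of the thresholded list. As a scale, the peak of hsp-3 was the strongest of the list (rank 1, signal value 34888.2) and that of hsp-4 was rank 9 (3537.3). Both encode BiP, the main ER chaperone of the HSP70 family. No member came near these: the strongest, serp-1.1, had a signal value of 898.6. Of the genes that relate to the transgene, unc-119 had no thresholded promoter peak and a pooled relaxed region of rank 7918. Values for xbp-1 itself are not given here.

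**Figure D3:**
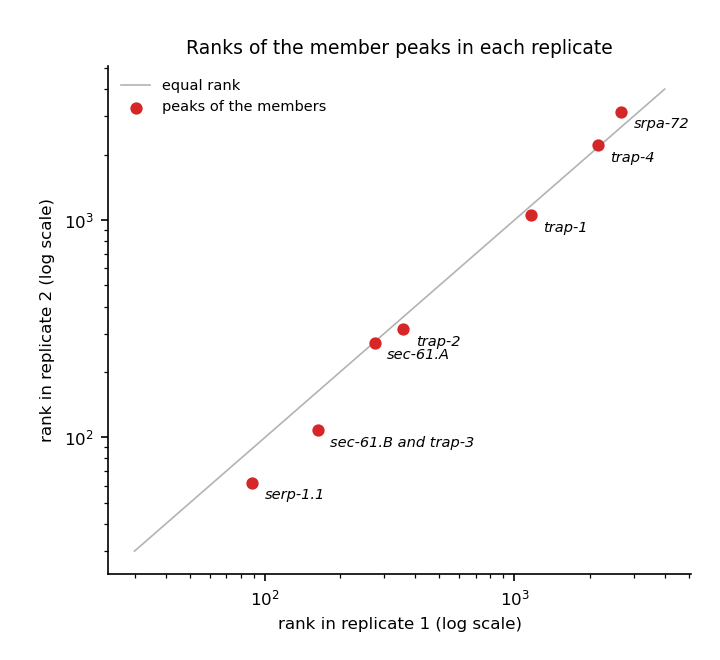
Ranks of the 7 member peaks in replicate 1 (x axis, log scale) and replicate 2 (y axis, log scale) among the 3639 thresholded peaks with a region in both replicates; the line marks equal rank. The order of the peaks is the same in both replicates, and srpa-72 shows the widest gap, 474 ranks.

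The replicates ordered the member peaks alike. Ranked among the 3639 thresholded peaks that overlapped a region in both replicates, the members' ranks differed between replicates by a median of 55, against 259 for all of them. srpa-72 had the widest difference, 474, and sec-61.A the narrowest, 2. These medians are not matched for rank, and stronger peaks have less room to differ. The member peaks at ranks 77 to 325 differed by 2 to 55, and those of trap-1, trap-4 and srpa-72 by 64 to 474. No median was taken for all peaks of like rank, so 55 against 259 does not set the members apart. The distance between replicate summits had a median of 13 bp for the member peaks, against 15 bp for all thresholded peaks and 7 bp for the first 500. All 7 peaks also belonged to the strongest 3641 regions of each replicate. No share of all thresholded peaks stands beside this count. Those peaks were themselves chosen by a threshold over both replicates, so the count does not set the members apart. The lists hold no read totals, so the depth behind these values is unknown, and with 2 replicates no test was made. The peaks of trap-4 and srpa-72 were 376 bp wide with the summit at the centre, as were 2183 of the thresholded peaks.

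The base composition of the member peaks varied widely. Within 50 bp of the summit, G and C made up 29.7% at sec-61.A, 37.6% at trap-4 and 55.4% to 60.4% at the other 5 peaks, against a mean of 47.2 ± 7.5% (SD) over the 3641 thresholded peaks. Short words, among them parts of the ER stress elements, were searched on both strands within 50 bp of the summit. TGACGTG, the core of the unfolded protein response element, was in none of the 7 member peaks and in 3.43% of all thresholded peaks, and still in none within 150 bp, against 5.36%. With 3 counts taken as the limit behind a count of 0, 0 of 7 allows a share of up to 42.9%, for counting error only. For as few as 7 peaks this limit is rough. CCACG, from the ER stress element, was at srpa-72, 2 bp from the summit (18.43% of all peaks). The shorter ACGT, which lies inside TGACGTG as well as inside the E-box CACGTG and can overlap with CCACG, was 18 bp from the summit at serp-1.1 and at the summit of trap-4 (30.10% of all peaks). CCAAT (15.79%), the E-box CACGTG (5.47%), the cyclic AMP response element TGACGTCA (1.68%), which also holds ACGT, and GAGAGAGA (6.62%) were in none. For scale, hsp-4 has TGACGTG 7 bp from its summit, while hsp-3 has it 80 bp away. No match says only that these letters are not in the window.

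A different word was common to the members. Among 859 distinct 7-base words within 75 bp of the 7 summits, with either strand counted as the same word, ACTGCAA was the only one present in all 7; it was chosen after the sequences had been seen, so its count is a description and supports nothing by itself. It was in 98 of the 3641 thresholded peaks, or 2.69%, and in 2.46% of windows of the same length 500 bp to either side. Over all peaks it was thus about as common beside the summit as away from it. The word was not particular to the gene lists used here. Among other peaks, it was in that of enpl-1 and imp-2 at rank 5 and that of C14B1.2 and pdi-1 at rank 88. By rank it was in 4.0% of the first 100 peaks, 4.0% of the next 400, 2.60% of the next 1500 and 2.38% of the rest. All these shares count the member peaks, from which the word was picked. Member peaks were 1 of the 4 with the word in the first 100 and 3 of the 16 in the next 400. The differences by rank are therefore partly set by that choice. Within 50 bp of the summit 6 of the 7 member peaks held it, against 1.92% of all peaks. Measured from the summit along the plus strand, it lay at -8 bp for serp-1.1, -22 for trap-2, -35 for trap-4, -42 for sec-61.B and trap-3, -67 for sec-61.A, 29 for trap-1 and 39 for srpa-72. It had no fixed place or strand: relative to the gene it was on the same strand for sec-61.A, sec-61.B, trap-2, trap-4 and srpa-72 and on the opposite strand for serp-1.1, trap-1 and trap-3. At sec-61.A these values are for the copy in the 75 bp window of the pooled summit. A second copy lay 78 bp from that summit on the plus strand, opposite to the gene. This second copy was the one within 75 bp of either replicate's summit.

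**Figure D4:**
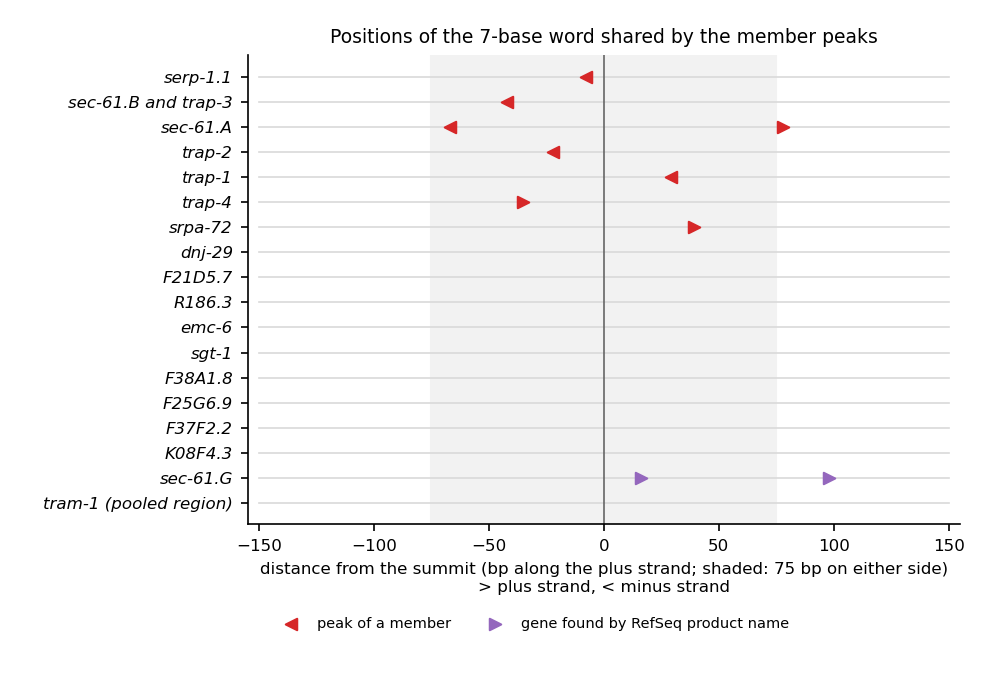
Positions of the shared 7-base word (x axis, bp from the summit along the plus strand) in the 7 member peaks (red), the peaks of 6 other ER entry genes and of 4 genes found by RefSeq product name (purple), and the pooled relaxed region of tram-1; arrowheads give the strand and the shaded band is 75 bp on either side. All 7 member peaks hold the word in the band, as does that of sec-61.G, and the other 9 peaks drawn and the tram-1 region hold none.

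The windows shared little else. Each of the next most common words was in 5 of the 7 member windows. The first, CTGCAAA, shares its first 6 letters with the end of ACTGCAA and was in 4.26% of all peaks. Another, CAAACAC, was in 9.01%. The word GCAAACA, which overlaps it, was in 9.39%. The last, GTTTGCA, was in 5.90% and can overlap the others when read on the opposite strand. The longest run common to the sec-61.B and trap-3 peak and the srpa-72 peak was the 12 bases GCAAACACCGTG, at IV:2389181-2389192 and II:2787345-2787356 on the plus strand, 44 and 29 bp from the summits. It was picked after the sequences were seen. The run was in 20 of the 3641 peaks (0.55%), among them that of R186.3 at V:12967970-12967981, and in 0 of 7282 windows 500 bp away, which allows a share of up to 0.0412%. None of the 20 was among the first 100 peaks.

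Beside the members, 20 names of other genes of protein entry into the ER were looked up, and 13 matched the annotation. Of the 13, 7 had a thresholded promoter peak, against 8 of 9 members and 15.5% of all genes, with a median rank of 858. Among them were dnj-29, a J domain protein gene, at rank 456 (signal value 388.7), F21D5.7, annotated as the 54 kDa SRP protein, at rank 577 (342.5), and R186.3, annotated as an ADP-ribosylation factor-related protein, at rank 858 (264.8). The R186.3 summit was 824 bp upstream and also fell in the windows of R186.8 and lin-46. When each summit was given only to the gene with the nearest start, 2 of the 13 had a peak, with no share of all genes beside it. The 6 genes without a thresholded peak were C18E9.2, annotated as the translocation protein SEC62, asna-1 of the pathway for tail-anchored proteins, and emc-1, emc-2, emc-3 and emc-5 of the ER membrane protein complex. Of these, emc-1 had a pooled relaxed region of rank 4361 and C18E9.2 one of rank 8283, while asna-1 and emc-2 had none in any list.

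The gamma subunit of the channel, sec-61.G, was found by its RefSeq product name and is named here after its values were seen. Its peak, V:10897219-10897530, ranked 44 with a signal value of 1161.5, above every member, and its summit lay at -218 bp from the start, in a promoter shared with F32D8.13. Replicate 1 ranked it 49 and replicate 2 ranked it 40. The word ACTGCAA lay 16 bp from that summit. The 3 Sec61 subunit genes thus had peaks at ranks 44, 130 and 270. Of the 10 genes added by product name 4 had a thresholded peak, the other 3 being F25G6.9 (rank 853) and F37F2.2 (1166), both SRP protein genes, and K08F4.3 (1203), annotated as a TRAP beta subunit. The plus-strand sequence 75 bp on either side of the sec-61.G summit is shown, from RefSeq for WBcel235 with the word in capitals, because it extends the comparison to the third channel subunit.
sec-61.G (V:10897286-10897436): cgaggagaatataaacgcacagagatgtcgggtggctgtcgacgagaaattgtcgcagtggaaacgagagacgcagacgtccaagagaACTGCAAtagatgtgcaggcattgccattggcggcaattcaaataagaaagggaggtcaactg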

How the data were processed

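XBP-1-GFP ChIP-seq peak lists of 2 biological replicates of 1 group were used, on ce11. Per the deposited file lists, relaxed regions (peaks and background) were called for each replicate and for both pooled, each also from 1 further file that is not described, and a thresholded list was derived by IDR. Names and versions of the aligner and caller: not given in the sources used here. The deposited signal value, whose scale is not stated, ranked regions within a list. Deposited -log10 q-values reach a ceiling within each list (3.79 in the thresholded and pooled lists, 3.93 in replicate 1 and 3.73 in replicate 2) and did not serve for ranking. Depth is unknown. The lists held 3641 thresholded peaks and 26088 pooled, 30000 replicate 1 and 28535 replicate 2 relaxed regions.

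Summits (region start plus the deposited offset) were matched to Ensembl release 115 protein-coding transcript starts with Python 3.11.15; product names and sequence came from RefSeq. Peaks and replicate regions were paired at an overlap of at least 1 bp. Tested on simulated data, the assignment recovered 500 of 500 planted summits. No test was run. The members, gene lists and motifs were chosen with earlier results of these data known. Besides the members, the text names genes that share a summit with one or lie beside its peak, the wider genes with the 4 strongest peaks, 1 of which is not reported here, and those without one, hsp-3, hsp-4, unc-119 and xbp-1. Alternatives were other windows, the nearest start, stricter and relaxed lists and each replicate alone. ce10 lists were not used.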

Additional observations from a re-analysis of the deposited data

How the results depend on the processing

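The count of 8 members with a thresholded promoter peak ranged from 6 to 9 over the alternatives: 8 with 500 bp upstream, 9 with 2000 bp, 7 with the nearest start (without sec-61.B and tram-1), 6 among the stronger 1820 peaks (without trap-4, tram-1 and srpa-72), 9 in the pooled relaxed list and 8 without either replicate. A share of all genes was taken for the main window only. Counts under the other windows, the nearest start or the stronger 1820 peaks have none beside them. Distinct peaks ranged from 5 to 8. The median rank of 297.5 became 325 with the 2000 bp window, the nearest start or the pooled relaxed list and 200 among the stronger 1820, because members entered or left; ranks from lists of different lengths show no change. Leaving out a replicate gave 290.5 to 315.5, beside an SD of 17.7 between the replicates' medians. The 7 wider genes became 2 with the nearest start and 11 with product-name genes added, a list chosen after the values were seen, and 5 to 10 otherwise. TGACGTG stayed at 0 members in all windows tried. ACTGCAA was at 8 members (7 peaks) within 75 bp of the summit, 2 within 25 bp, 7 within 50 bp, and 8 within 100 or 150 bp and with either replicate's summits. With either replicate's summit at sec-61.A, the copy in the window was the second one, at 78 bp from the pooled summit, and not that at -67 bp. The ce10 lists were not run. No paired analysis was possible because there is 1 group and no result comes from a test. Limits are the unknown depth, the unstated signal scale, the single transgenic line and the shared promoters.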
